A study of Arabidopsis thaliana with 4 samples.

Results

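Expression of 10 expansin genes of Arabidopsis thaliana was examined in roots with and without aluminium (Al), in the wild type and in a mutant of the transcription factor WRKY47. The genes were chosen by their gene codes, in a list that leaves out the root hair expansins EXPA7 and EXPA18. The list is not the whole superfamily, as 26 other expansin genes, EXPA7 and EXPA18 among them, are not in it. The 10 genes were EXPA1, EXPA4, EXPA5, EXPA6, EXPA10 and EXPA14 of the α-expansins, EXPB1 and EXPB2 of the β-expansins, and EXLA1 and EXLA3 of the expansin-like A family. These are 10 of the 20341 genes that the arrays measured with a probe set of their own. They were represented by 11 probe sets, since EXPB2 was also on a probe set that names EXPB4 and EXPB6.

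Expansins are secreted proteins of the plant cell wall. They loosen the contacts between cellulose and the xyloglucans that bind it, without cutting the polymers, and they are most active in an acidified wall, as produced by the plasma membrane proton pumps during acid growth. Wall extension of this kind drives cell elongation in the root, and inhibition of root elongation is the best known effect of Al on plants. The expansin-like A proteins share the domain structure of expansins, but a wall-loosening activity is not established for them.

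Plants of 4 weeks from hydroponic culture were kept for 6 h in 0.5 mM CaCl2, either alone (control solution) or with 25 µM AlCl3 (Al). The 4 groups were wild-type control, wild-type Al, wrky47 control and wrky47 Al, where wrky47 stands for the single mutant line wrky47-1, so that CaCl2 was common to all of them. Total RNA of whole roots was hybridised to 1 array per group. The number of plants behind each array and the accession of the wild type were not given in the sources used here. As no group had a replicate, the spread between replicates is unknown and no p-value was computed. Each difference is one between single arrays, and each array enters 3 of the 5 comparisons, so that these are not independent of one another. In RNA of whole roots, fewer cells of a type and less RNA per cell cannot be told apart.

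The signal of WRKY47 in the wild type was 173 without and 203 with Al, against 27.5 and 24.1 in wrky47, in the direction of the genotype labels. Signals are on a linear scale in arbitrary units, and a gene was taken as detected above the 40th percentile of an array, a floor between 75 and 81.1. Of 6 genes for root tissue, 5 had a probe set of their own, and SCR, SHR, CASP1 and MYB36 were above the floor on all 4 arrays, while PLT1 was below it throughout. Genes with 2 or more measured probe sets gave the one repeat measure in the files. The probe sets of 1 gene differed by a median of 0.21 on the log2 scale in the Al response of wild type (90th percentile 0.49, 89 genes), and by 0.25 in the difference of the responses (90th percentile 0.45, 84 genes). This gap covers differences between probe sets on the same arrays, not those between plants or arrays.

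Among the 10 expansins, 6 were above the floor on all 4 arrays, EXPA14 was on 3 and EXPB1 on 2. EXPA5 and EXPA10 were below it on every array. The probe set shared by EXPB2, EXPB4 and EXPB6 was also below the floor throughout, with signals between 13.8 and 15.3. The pattern over the arrays split the detected genes. EXPA1, EXPA4 and EXPA6 were highest in wild-type control and lowest in wild-type Al. EXPA14 and EXPB1 were highest in wild-type control and low under Al in both genotypes. EXPB2, EXLA1 and EXLA3 were highest in wrky47 Al.

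**Figure D1:**
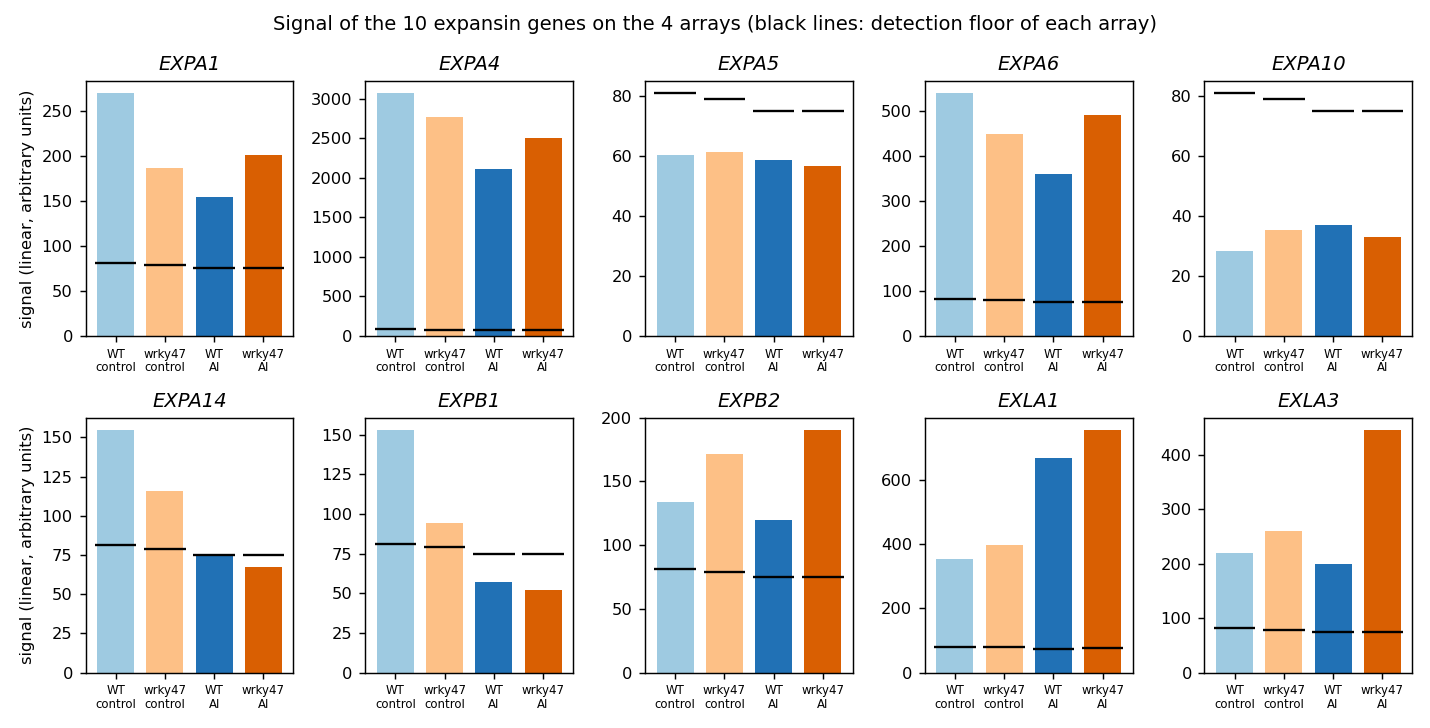
Linear signal (arbitrary units, y axis from 0, a scale of its own in each panel) of each of the 10 expansin genes on the 4 arrays, 1 bar per array (WT, wild type), with the detection floor of each array as a black line. EXPA5 and EXPA10 stay below the floor, EXPA1, EXPA4 and EXPA6 are lowest in wild-type Al, and EXLA3 stands out in wrky47 Al at 446.

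EXPA1 (AT1G69530) takes part in stomatal opening in guard cells and in lateral root initiation in the pericycle. Its probe set is placed at chr1:26142033-26143051 on the plus strand by the deposited annotation, whose genome build was not stated in the sources used. In the wild type EXPA1 had a signal of 269 without Al and 155 with it, and in wrky47 it had 186 without and 201 with Al. Wild-type control thus stood above the other arrays, wild-type Al below them, and the mutant arrays lay close together in between. The step from the highest array to the next was 0.42 on the log2 scale.

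EXPA4 (AT2G39700) and EXPA6 (AT2G28950) are both on chromosome 2, at chr2:16544245-16545434 and chr2:12431839-12433482 on the minus strand in the same annotation. Both carry the annotation term syncytium formation, for the feeding cells that cyst nematodes induce in roots, as do EXPA1 and EXPA10 among the 10 genes and 21 genes on the array in all. In the wild type EXPA4 had a signal of 3071 without Al and 2116 with it, against 2769 and 2509.6 in wrky47. EXPA6 had a signal of 540.0 without Al and 360.0 with it in the wild type, against 449 and 490.4 in wrky47. Both were lowest in wild-type Al. They differ in the order of the mutant arrays, as EXPA4 was higher in wrky47 control than in wrky47 Al and EXPA6 the other way round, with gaps of 0.14 and 0.13 on the log2 scale that lie under the median gap between probe sets of 1 gene (0.17).

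The 3 genes had much the same profile. After each profile was centred on its mean over the arrays, the Euclidean distance on the log2 scale was 0.20 between EXPA4 and EXPA6, 0.23 between EXPA1 and EXPA6 and 0.29 between EXPA1 and EXPA4. These were the smallest of the 15 distances among the 6 genes detected on all arrays, and the largest was 1.37, between EXPA1 and EXLA1. An order with wild-type control highest and wild-type Al lowest was held by 13.2% of the 12223 genes detected on all arrays.

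EXPA14 (AT5G56320) is a target of the lateral root regulator LBD18 and promotes lateral root emergence. Its probe set lies at chr5:22808853-22809906. In the wild type the signal of EXPA14 was 155 without Al and 75.5 with it, and in wrky47 it was 116 and 67.2. Both Al arrays were thus below both control arrays, just above the floor of 75 in wild type and below the floor of 75.1 in wrky47. EXPB1 (AT2G20750, chr2:8941184-8942430), a β-expansin, behaved in a like manner. The wild type gave 153 without Al and 56.9 with it, and wrky47 gave 94.2 and 51.8, where both values in Al are under the floor.

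EXPB2 (AT1G65680, chr1:24427265-24428399), the other β-expansin, carries with EXPB1 the annotation term sexual reproduction. Its signal in the wild type was 134 without Al and 119.9 with it, and in wrky47 172 and 190.5. Both mutant arrays were above both wild-type arrays. No other of the 10 genes except EXLA3 had wild-type Al as its lowest and wrky47 Al as its highest array, an order held by 4.16% of the genes detected on all arrays.

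EXLA1 (AT3G45970, chr3:16896237-16897189) and EXLA3 (AT3G45960, chr3:16892825-16893789) are neighbours on the plus strand of chromosome 3, their probe set alignments 2447 bases apart, with 1 other annotated gene between them. EXLA1 had a signal of 353 without Al and 667 with it in the wild type, and of 396 and 756 in wrky47. EXLA3 had a signal of 219.96 without Al and 199.6 with it in the wild type, and of 260.4 and 446 in wrky47. EXLA1 was higher on both Al arrays than on both control arrays, whereas for EXLA3 wrky47 Al stood 0.77 on the log2 scale above the next array and the other 3 arrays lay between 199.6 and 260.4. The distance between their centred profiles was 0.92, well above that within the 3 α-expansins. Hybridisation of the RNA of one to the probes of the other was not tested.

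EXPA5 (AT3G29030), which responds to brassinosteroid in the shoot, had signals between 56.8 and 61.4. EXPA10 (AT1G26770), known for leaf and petiole growth, had signals between 28.4 and 36.9. No fold change is given for either gene, since all of these values are below the floor.

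The first comparison asked how Al changed expansin expression in wild-type roots. Of the 7 expansins detected in both solutions, 6 had a lower signal in Al and EXLA1 a higher one, where 64.1% of all measured genes were lower. EXPA14 fell 2.05-fold (-1.04 on the log2 scale), to a signal just above the floor, and was the one measured gene past 2-fold. EXPA1 was 1.74-fold lower (-0.80), EXPA6 was at -0.59 and EXPA4 1.45-fold lower (-0.54). EXPB1 was at least 2.04-fold lower, given as a bound against the floor of the Al array (-1.03 on the log2 scale). This bound is just past 2-fold and was not computed under other scalings. EXPB2 (-0.16) and EXLA3 (-0.14) lay near the median of all genes, which was -0.12. EXLA1 was 1.89-fold higher (0.92). Relative to the median of all genes EXPA14 was at -0.92, EXPA1 at -0.68, EXPA4 at -0.42 and EXLA1 at 1.04, so that EXLA1 in place of EXPA14 was past 2-fold on that scale.

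Over all 12434 genes measured in this comparison, 5.47% were past 2-fold in either direction and 2.42% were lower by 2-fold. The count of the expansins rests on 1 gene of 7. EXPA14 was just inside 2-fold when scaled to the 75th percentile (-0.98), centred on detected genes (-0.97) or quantile normalized (-0.93), and at -0.81 with an offset added before log2. The median of the 7 expansins was -0.54. Of all measured genes 4.34% had a lower value than EXPA1, 9.37% than EXPA6, 11.4% than EXPA4 and 2.19% than EXPA14, and 96.3% had a lower value than EXLA1. The 4 α-expansins were all below the lower quartile of all genes, -0.34.

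In wrky47 roots EXPA1, EXPA4 and EXPA6 were near their control level under Al. EXPA1 was 1.08-fold higher (0.11), EXPA6 1.09-fold higher (0.13) and EXPA4 1.10-fold lower (-0.14), all within the quartiles of all genes, -0.27 and 0.18. EXLA1 was 1.91-fold higher (0.93), nearly the same value as in wild type. EXLA3 was 1.71-fold higher (0.77), and EXPB2 was 1.11-fold higher (0.15). EXPA14 was at least 1.54-fold lower and EXPB1 at least 1.25-fold lower. None of the 6 expansins measured passed 2-fold, against 5.38% of all 12465 genes measured. Their median was 0.14 and that of all genes -0.07.

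**Figure D2:**
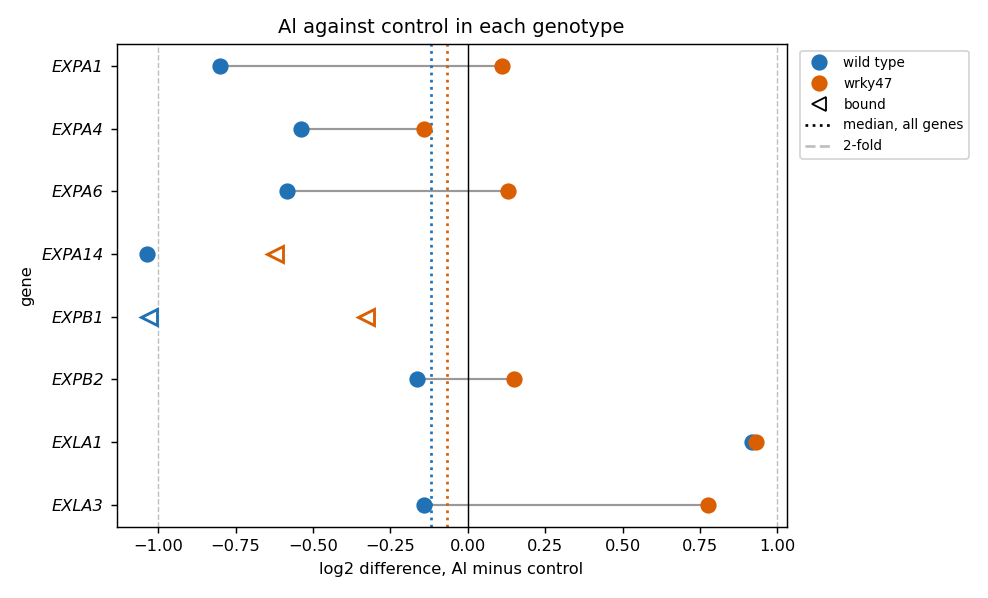
The log2 difference between Al and control (x axis) for the 8 expansin genes detected in at least 1 solution (y axis), in wild type (blue) and wrky47 (orange). Filled points are measured values, open triangles are bounds against the floor, dotted lines are the medians of all genes (-0.12 and -0.07) and dashed lines mark 2-fold. EXPA1, EXPA4 and EXPA6 lie between -0.80 and -0.54 in wild type and between -0.14 and 0.13 in wrky47, while the points of EXLA1 coincide.

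The genotypes were then compared in control solution. EXPB1 was 1.62-fold lower in wrky47 (-0.70), a value below which 1.02% of the 12602 genes measured lay. EXPA1 was 1.45-fold lower (-0.53), EXPA14 1.34-fold lower (-0.42), while EXPA6 (-0.27) and EXPA4 (-0.15) were closer to the wild type. EXPB2 was 1.28-fold higher (0.36), EXLA3 1.18-fold higher (0.24) and EXLA1 1.12-fold higher (0.17). All 4 measured α-expansins were thus lower in the mutant and both expansin-like genes higher, and the β-expansins divided, where 60.1% of all measured genes were lower. None of the 8 was past 2-fold, which 0.309% of all genes were. The median of the 8 was -0.21 and that of all genes -0.05.

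In Al all 6 measured expansins had a higher signal in wrky47 than in wild type, where 49.3% of all measured genes were lower. EXPA1, EXPA4 and EXPA6 had been lower in wrky47 in control solution, whereas EXPB2, EXLA1 and EXLA3 were higher in both solutions. EXLA3 was 2.23-fold higher (1.16) and past 2-fold, with 15 of the 12602 genes measured at a higher value. EXPB2 was 1.59-fold higher (0.67), EXPA6 1.36-fold (0.45), EXPA1 by 0.38 on the log2 scale, EXPA4 1.19-fold (0.25) and EXLA1 1.13-fold (0.18). Of all genes 0.341% were past 2-fold in either direction and 0.23% were higher by 2-fold. The median of the 6 was 0.41 and that of all genes 0.00322, and all 6 were above the upper quartile of all genes, 0.14. EXPA14 and EXPB1, under or at the floor in Al, are not in this count. EXPA14 had a signal of 75.5 in wild type and 67.2 in wrky47, and EXPB1 had 56.9 and 51.8.

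**Figure D3:**
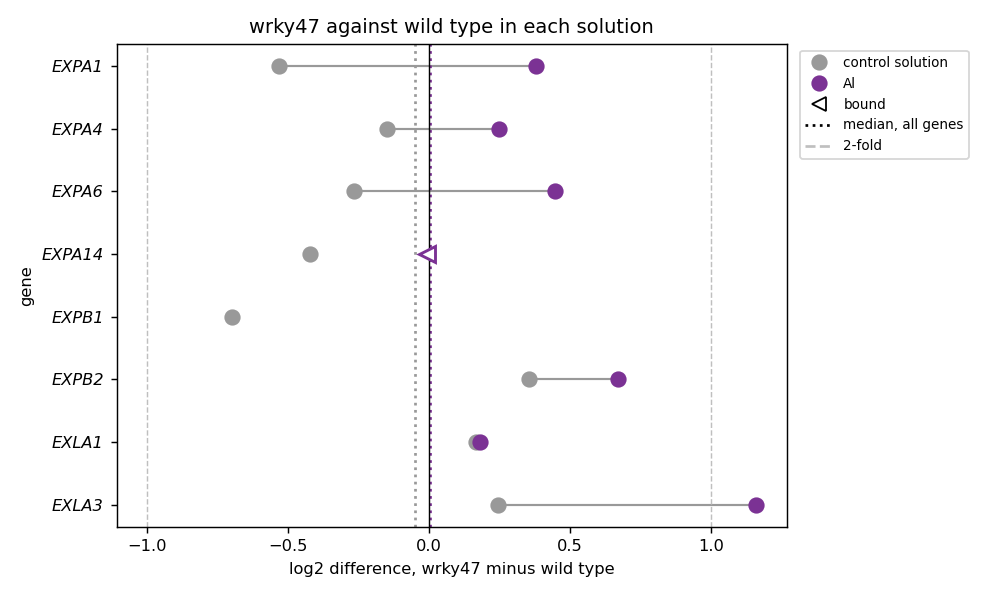
The log2 difference between wrky47 and wild type (x axis) for the 8 expansin genes detected on at least 1 array (y axis), in control solution (grey) and in Al (purple). Filled points are measured values, the open triangle is a bound, dotted lines are the medians of all genes and dashed lines mark 2-fold. EXPA1, EXPA4 and EXPA6 are below 0 in control solution and above 0 in Al, and EXLA3 reaches 1.16 in Al.

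The difference between the responses, that of wrky47 minus that of wild type, was above 0 for all 6 expansins detected on all arrays as deposited, as it was for 59.6% of the 12223 genes. It was 0.92 for EXLA3, 0.91 for EXPA1, 0.71 for EXPA6, 0.40 for EXPA4, 0.31 for EXPB2 and 0.01 for EXLA1. The value of EXLA1 turned negative under each of the 3 other scalings tried (quantiles, medians, 75th percentile). For EXLA3 26 genes and for EXPA1 28 genes had a higher value, and for EXPA6 it was 96. The values of EXLA3, EXPA1 and EXPA6 exceeded the 90th percentile of the gap between probe sets of 1 gene, as did 5.6% of all genes, and those of EXPA4, EXPB2 and EXLA1 did not. None of the 6 was past 2-fold, which 0.188% of all genes were. The median of the 6 was 0.55 and that of all genes 0.05.

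For EXPA1 and EXPA6 the difference had a contribution from both solutions, a higher signal of wild type in control solution and a lower one in Al. EXPA1 in wrky47 was at -0.53 against the wild type without Al and at 0.38 with it, and EXPA6 was at -0.27 and 0.45. For EXLA3 the mutant was higher by 0.24 in control solution and by 1.16 in Al, so most of the difference came with the single array wrky47 Al.

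**Figure D4:**
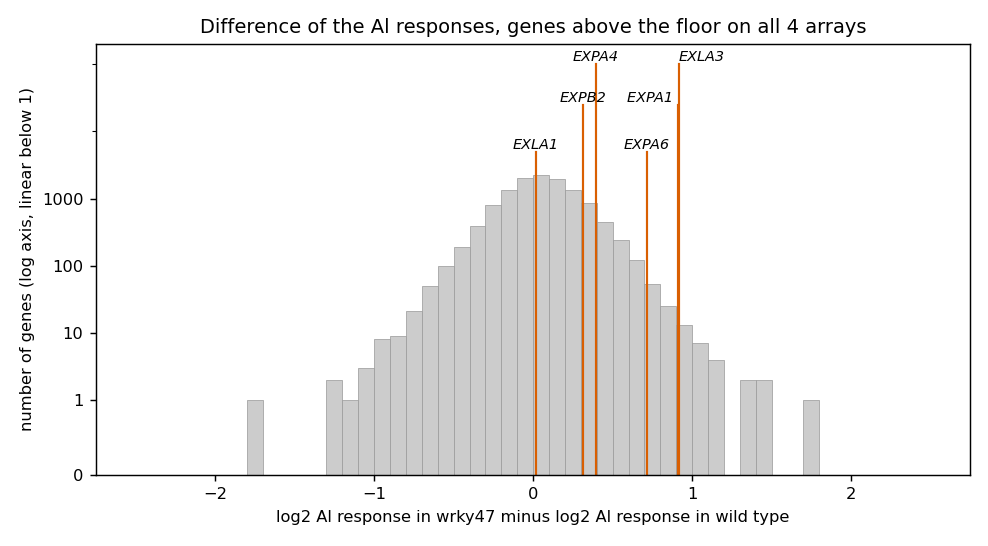
Number of genes (y axis, logarithmic above 1 and linear below) by the log2 Al response in wrky47 minus that in wild type (x axis, bins of 0.1), for the 12223 genes detected on all 4 arrays, with orange lines at the 6 expansins. EXLA3 (0.92) and EXPA1 (0.91) are in the right tail and EXLA1 (0.01) is near the middle.

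The rest of the expansin superfamily was set beside these genes. Of 26 other expansin genes, 19 had a probe set of their own and 6 were above the floor on all arrays, while 7 were below it on all. In wild type 4 of the 6 had a lower signal in Al, EXPA20 by -0.89, EXPA15 by -0.78, EXPA13 by -0.39 and EXPB3 by -0.37, where 64.1% of all genes were lower. The 6 had a median of -0.38, and none was past 2-fold. As bounds against the floor, the root hair expansin EXPA7 was at least 2.08-fold lower, EXPA18 1.38-fold, EXPA17 1.26-fold and EXPA8 1.12-fold, and EXLA2 at least 1.09-fold higher. In wrky47 the log2 differences were -0.66 for EXPA20, -0.44 for EXPA13, -0.32 for EXPA9 and -0.23 for EXPB3, over 7 measured genes with a median of -0.23. EXPA15 had a signal of 1442 without Al and 842 with it in the wild type, and of 1204 and 1061 in wrky47. Like EXPA1, EXPA4 and EXPA6, it was highest in wild-type control and lowest in wild-type Al, and so were EXPA20 and EXPB3. The difference of the responses of EXPA15 was 0.59, the highest of the 6 measured, against 0.23 for EXPA20, 0.13 for EXPB3 and -0.07 for EXLB1. The median of the 6 was 0.04, beside 0.05 for all genes. In Al the largest differences between the genotypes were -0.42 for EXPA11, 0.33 for EXPA15, 0.20 for EXLA2 and 0.18 for EXLB1, and in control solution -0.76 for EXPA7, -0.35 for EXPA11, -0.26 for EXPA15 and 0.26 for EXLB1.

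Plasma membrane proton pumps acidify the wall in which expansins act. Of 11 pump genes 7 were above the floor on all arrays and none passed 2-fold in any comparison. AHA2 and AHA1 are the main pumps of the root. AHA2 had a signal of 11137 without Al and 6282 with it in the wild type, and of 11184 and 6642 in wrky47. AHA1 had -0.54 in wild type and -0.34 in wrky47 as its log2 difference with Al, against -0.83 and -0.75 for AHA2. Both pumps were thus lower in Al in both genotypes, and their differences of the responses, 0.07 for AHA2 and 0.20 for AHA1, were under the median gap between probe sets. The other pumps were mixed. With Al, AHA4 had 0.60 in wild type and 0.24 in wrky47, AHA7 had 0.30 and 0.42, and AHA5 had -0.66 and -0.22. The medians of the 7 pumps were -0.02 in wild type and 0.05 in wrky47. The difference of the responses was 0.44 for AHA5 and -0.36 for AHA4, both larger in size than that gap.

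Genes of xyloglucan synthesis, which supply the polymer that expansins loosen from cellulose, had 2 of 6 measured members past 2-fold in Al in each genotype, both upward. The xylosyltransferase gene XXT1 rose by 1.88 in wild type and 1.73 in wrky47 on the log2 scale, and the glucan synthase gene CSLC4 by 1.21 in both. The share of genes higher by 2-fold was 3.05% in wild type and 3.42% in wrky47. The medians of the 6 genes were 0.27 and 0.17. No member passed 2-fold between the genotypes, and the difference of the responses ranged from -0.15 to 0.38.

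**Figure D5:**
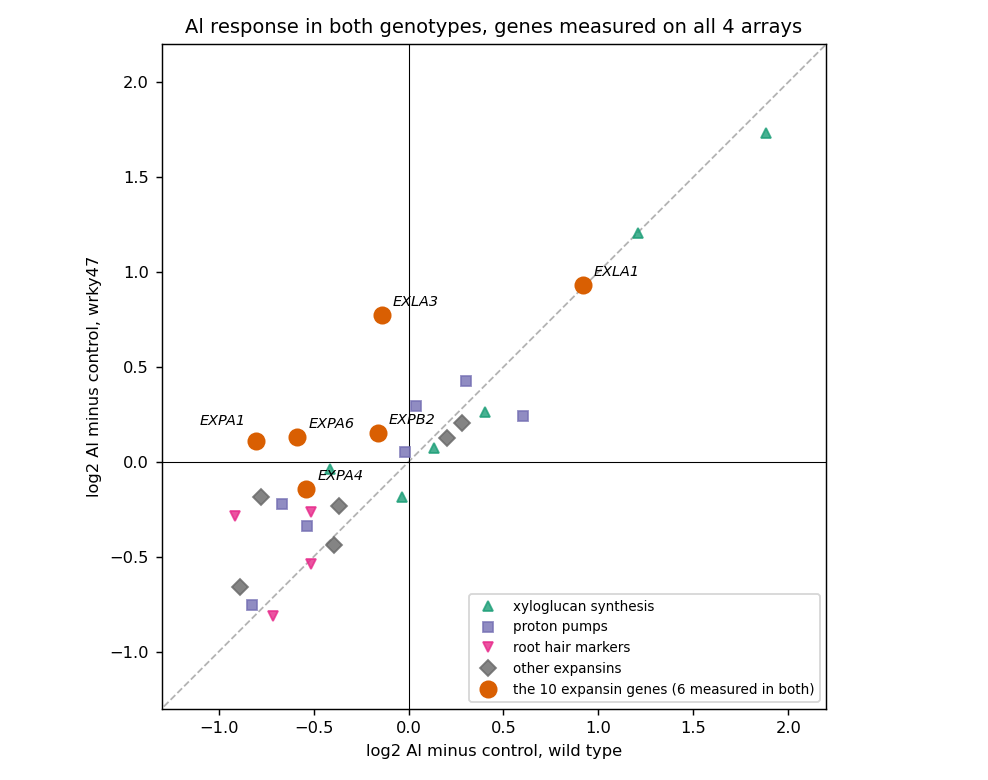
The log2 difference between Al and control in wrky47 (y axis) against that in wild type (x axis) for genes measured on all 4 arrays, 1 point per gene: the 6 expansins (orange circles), other expansins, proton pumps, xyloglucan synthesis genes and root hair markers. The dashed line marks equal responses. EXLA3, EXPA1 and EXPA6 lie farthest above it, and the proton pumps and xyloglucan genes lie nearer to it.

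Among 5 endoglucanase genes 3 were measured in each comparison, none past 2-fold. CEL5, an endoglucanase of the root cap, had log2 differences with Al of -0.84 in wild type and -0.38 in wrky47, and KOR1 of cellulose synthesis had -0.09 and -0.18. The lateral root module that acts on EXPA14 could be followed in part, since LBD18 and LBD33 were below the floor on all arrays. The repressor gene IAA14 fell by 1.13 with Al in wild type and had -0.45 in wrky47, LBD16 had -0.49 and -0.82, and the activators ARF7 (-0.02 and 0.02) and ARF19 (0.15 and 0.07) stayed within the quartiles of all genes or close to them.

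Markers of other root cells also differed between the arrays. The list of 13 root hair genes holds EXPA7 and EXPA18, which are also among the other expansins above. Of the 13, 8 were measured in control solution, EXPA7 among them. All 8 were lower in wrky47, with a median of -0.77. In Al 4 were measured and 3 of them were lower in wrky47, with a median of -0.20. Of all measured genes 60.1% were lower in wrky47 in control solution and 49.3% in Al. The summed signal of the 13 genes was 5059 without Al and 2709.8 with it in the wild type, and 3112 and 2178 in wrky47. LRX1, MRH6 and RSL4 of that list were below the floor on all arrays. All 5 measured genes of dividing cells were lower in Al in both genotypes, with medians of -1.02 in wild type and -0.90 in wrky47. Of all measured genes 64.1% were lower in Al in wild type and 57.8% in wrky47. The summed signal of the dividing cell genes was 2316 without Al and 1210.0 with it in the wild type, and 2304 and 1287 in wrky47. All 5 xylem genes were lower in wrky47 in both solutions, with medians of -0.35 in control and -0.65 in Al, opposite to the direction of the expansins in Al. The 4 measured root tissue genes were lower in Al in both genotypes, with medians of -0.40 and -0.46. In control solution 3 of the 4 were lower in wrky47 and 1 higher, with a median of -0.25. The difference of the responses was above 0 for 2 of them and below 0 for 2, with a median of 0.10. It was above 0 for 59.6% of all genes measured. CASP1, of the endodermal Casparian strip, had the largest values. It fell in both genotypes (log2 difference -3.41 in wild type and -2.73 in wrky47). It was lower in wrky47 in control solution (-1.04) and had a difference of the responses of 0.67. Of 4 green tissue genes 2 had a probe set of their own, and PSBO1 was below the floor on all arrays, so that only LHCA4 was measured. LHCA4 had log2 differences with Al of 0.80 in wild type and 1.05 in wrky47. The latter was past 2-fold, where 3.42% of all measured genes were higher by 2-fold. Between the genotypes LHCA4 was at -0.83 in control solution and -0.58 in Al. The summed signal of LHCA4 and PSBO1 was 209 without Al and 343 with it in the wild type, and 133 and 233 in wrky47. The part of these cell types in the expansin values was not tested.

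The genes most like the expansins in profile were sought for 3 genes, those with the widest range among the expansins detected on all 4 arrays, EXLA3 (2.23-fold), EXLA1 (2.14-fold) and EXPA1 (1.74-fold), among 5906 genes with a symbol detected on all 4 arrays. Those nearest to EXLA3 were CYP78A8 (distance 0.22), JAL22 (0.25), ACC2 (0.27) and NIMIN1 (0.29), against a median distance of 0.98. Nearest to EXLA1 were RIPK (0.06), APG9 (0.08), UMAMIT42 (0.08) and DLAH (0.08), against a median of 1.05. Nearest to EXPA1 were HMGB6 (0.07), TOP1ALPHA (0.14), SCPL12 (0.15) and PDF2.1 (0.16), against a median of 0.59. CYP78A8, for example, had a signal of 2289.7 without Al and 2181 with it in the wild type, and of 2825 and 4022 in wrky47. Distances over 4 arrays describe these arrays alone.

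As members of 1 family, all 10 genes carried the annotation terms plant-type cell wall loosening, unidimensional cell growth and extracellular region, which 30, 87 and 1794 genes on the array carried. The term plasmodesma was held by EXPA4, EXLA1 and EXLA3.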

How the data were processed

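Root RNA of 4 groups with 1 array each was analysed. In the main table, 22810 probe sets long, the columns marked normalized are log2 values, per the file headers. Those marked raw, as deposited, are linear intensity values equal to 2 to the power of the log2 ones. Per the submitters' processing notes MAS5 was used, with no settings stated. Background correction, scaling and annotation build were not given in the sources used. A second deposited table, with columns named by sample, had the same values (0 probe sets differed). Columns were tied to samples by genotype and CK in their names, and this second table gave the same assignment.

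Of 22746 gene probe sets, 20550 name 1 gene. A gene with several took the one with the highest mean, which gave 20341 genes; 20277 matched RefSeq locus tags of TAIR10.1, used for symbols and neighbours. A gene was measured in a comparison if above the 40th percentile of every array in it. Otherwise a bound is given, the signal of the brighter array divided by the floor of the dimmer one. A difference of 2-fold served as a rule of size. The calculation was tested on simulated data, with changes well past 2-fold put into genes above the median signal. Smaller changes and genes near the floor were not covered by that test. Members, lists and the naming rule (all 10 genes; up to 4 members of each list with the largest absolute difference in a comparison, and those past 2-fold; the 4 nearest profiles of 3 genes) were chosen with earlier results of these data known. Alternatives covered scaling, floor, threshold, offset and table. The number of arrays limits the precision. Python 3.11.15, numpy 2.4.6 and pandas 2.3.3 were used.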

Additional observations from a re-analysis of the deposited data

Results flagged for a closer look

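The responses of 5 expansins had opposite directions in the groups compared, with 1 array per group; none of these differences was tested. The difference of the Al responses, wrky47 minus wild type, was 0.91 on the log2 scale for EXPA1, whose signal was lower in Al in wild type (-0.80) and higher in wrky47 (0.11), and which was lower in wrky47 in control solution (-0.53) and higher in Al (0.38). EXPA6 had a difference of 0.71, with -0.59 in wild type and 0.13 in wrky47, and with -0.27 between the genotypes in control solution and 0.45 in Al. EXPA4 had 0.40, and its sign differed only between the solutions (-0.15 in control, 0.25 in Al). EXPB2 had 0.31 (-0.16 in wild type, 0.15 in wrky47) and EXLA3 0.92 (-0.14 in wild type, 0.77 in wrky47). The wild-type values of EXPB2 and EXLA3, close to the median of all genes (-0.12), the values of EXPA1, EXPA6 and EXPB2 in wrky47, and that of EXPA4 in control solution are no larger than the median gap between probe sets of 1 gene (0.21 with Al in wild type, 0.17 in wrky47 and in control solution). After quantile normalization EXPB2 and EXLA3 were at -0.03 and -0.04 in wild type. Of the 12223 genes detected on all arrays, 13.2% were lower in Al in wild type and higher in wrky47, as 4 of the 6 expansins were, and 24.3% were lower in wrky47 in control solution and higher in Al, as 3 of the 6 were.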

How the results depend on the processing

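No paired analysis was possible because each group holds 1 array, and for the same reason no array could be left out. Values of single expansins could change only under the 3 other scalings and the offset, with 33 values in each. A change of floor or of table left every value still measured as it was, by construction. With the floor at the 60th percentile only 16 of the 33 values were still measured. The difference of the responses was then left for EXPA4, EXPA6 and EXLA1. It was no longer measured for EXLA3, EXPA1 or EXPB2. Of the values that could change 3 changed sign, all of them the difference of the responses of EXLA1. It was -0.04 after quantile normalization, -0.05 after centring and -0.06 after scaling to the 75th percentile. EXPA14 in wild type, -1.04, ranged from -0.98 to -0.81 under the other scalings and the offset. The count of expansins past 2-fold with Al in wild type, 1 as reported, was 0 after quantile normalization, centring, scaling to the 75th percentile, with the floor at the 60th percentile, at a threshold of 3-fold and with the offset. It was 2 without a detection filter or with the floor at the 25th percentile, which let in EXPB1, and 4 at 1.5-fold. At 1.5-fold the counts were 2 with Al in wrky47, 1 between the genotypes in control solution, 2 between them in Al and 3 for the difference of the responses. Between the genotypes in Al the count of 1 became 0 at 3-fold. It also became 0 with the floor at the 60th percentile, where EXLA3 was not measured. The median of the expansins between the genotypes in Al, 0.41, was 0.21 without a filter or with the floor at the 25th percentile, each over 10 genes, and 0.25 over the 3 genes above the 60th percentile. Of the 10 genes, 6 were higher in wrky47 and 4 lower, the lower ones being EXPA5, EXPA10, EXPA14 and EXPB1. The median with Al in wrky47, 0.14, was 0.45 over the 4 genes above the 60th percentile, and 0.01 without a filter or with the floor at the 25th percentile, where 5 of the 10 genes were higher and 5 lower. Without a filter the median in control solution, -0.21, was -0.06, and that of the difference of the responses, 0.55, was 0.35. At the floor used, low signals limit EXPA5, EXPA10, EXPA14 and EXPB1.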

Other observations

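The root hair expansins EXPA7 and EXPA18 are given here as values. In the wild type EXPA7 had a signal of 156 without Al and 52.1 with it, and in wrky47 91.9 and 39. EXPA18 had 104 and 47.4 in the wild type and 61.6 and 46.8 in wrky47. All values with Al, and that of EXPA18 in wrky47 control, lie under the floor, where values have no firm order. Of the 10 expansins, EXPA14 lay nearest to EXPA18 in centred profile (distance 0.29) and EXPB1 nearest to EXPA7 (0.33). The distance between EXPA7 and EXPA18 was 0.70. EXLA1 was farthest from both, at 2.46 from EXPA7 and 1.81 from EXPA18. The distances rest in part on values under the floor.

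EXPA17, which like EXPA14 is known from lateral root emergence, had a signal of 94.1 without Al and 60.6 with it in the wild type, and of 106 and 61.6 in wrky47. As bounds, its signal with Al was lower by 1.26-fold or more in the wild type and by 1.41-fold or more in wrky47.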
